A study of Homo sapiens with 8 samples.

Results

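Fibronectin (FN1) and the 5 lysyl oxidases (LOX, LOXL1, LOXL2, LOXL3 and LOXL4) are 6 of the 25369 gene symbols in a table of RNA-seq values from MCF10A cells, a spontaneously immortalized line of human mammary epithelial cells. The genes were taken by name as a family of matrix assembly and crosslinking, but were selected on earlier results of these libraries, in which FN1 and LOX stood among the largest fold changes between stiff col and stiff IPN. Their differences between gels, and how many of them passed a threshold, are therefore given as a description that supports nothing further, and no p values are printed for them. Cells were cultured for 7 days inside 4 kinds of hydrogel, with 2 libraries per gel, 1 from each of 2 independent trials. Soft IPNs and stiff IPNs are interpenetrating networks of reconstituted basement membrane (rBM) and alginate, and calcium crosslinks the alginate in the stiff IPNs alone. Soft col:rBM gels hold rBM with a low density of rat-tail collagen-1 (col-1), and stiff col gels hold a high density of col-1 without rBM. Going from stiff IPN to stiff col thus changes col-1, rBM, alginate and calcium together, and going from soft col:rBM to stiff col changes stiffness, col-1 density and rBM together, so that their effects cannot be told apart. Between the IPNs, calcium changes with stiffness, and between the soft gels, alginate changes with col-1. The rBM and the rat-tail col-1 are matrix proteins supplied with the gel, whereas the values here are RNA of the cells.

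Fibronectin is a secreted glycoprotein that cells assemble into fibrils at their surface, mainly by pulling on it through the integrin α5β1, and on which collagens and other matrix proteins are then laid down. Lysyl oxidases are secreted copper-dependent enzymes that oxidize lysine side chains of collagen and elastin, which starts the covalent crosslinks that stiffen a matrix. LOX and LOXL1 carry a propeptide that procollagen C-proteinases such as BMP1 remove, while LOXL2, LOXL3 and LOXL4 carry scavenger receptor cysteine-rich domains instead. In mammary tissue both FN1 and LOX are best known from fibroblasts and from carcinoma cells, in which FN1 is also used as a marker of the epithelial-mesenchymal transition.

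On hg19, FN1 is on chromosome 2 from 216225163 to 216300796 (minus strand) and LOX on chromosome 5 from 121398890 to 121414108 (minus strand). LOXL1 is on chromosome 15 from 74218330 to 74244478 (plus strand), LOXL3 on chromosome 2 from 74759385 to 74782817 (minus strand) and LOXL4 on chromosome 10 from 100007447 to 100027951 (minus strand). The library kit does not mark strand. The reads of LOX and of SRFBP1, of LOXL1 and of LOXL1-AS1, and of LOXL3 and of HTRA2 and DOK1, which overlap on opposite strands, can therefore not be told apart where the genes overlap.

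FN1 and LOX were the members that differed most between stiff col and stiff IPN. The 250 bases before their RefSeq start sites (GRCh38.p14, 5′ to 3′ on the strand of the gene) are therefore shown, with the bases matched by the motifs searched in capitals. The FN1 window is chr2:215436069-215436318 and the LOX window chr5:122078260-122078509. Both are on the minus strand. LOX has 3 such entries, of which the one farthest upstream was used.
FN1: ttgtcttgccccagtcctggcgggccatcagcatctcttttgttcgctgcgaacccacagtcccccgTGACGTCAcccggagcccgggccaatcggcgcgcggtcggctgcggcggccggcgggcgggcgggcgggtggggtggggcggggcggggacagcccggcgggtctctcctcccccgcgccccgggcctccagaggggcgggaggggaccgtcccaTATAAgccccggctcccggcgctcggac
LOX: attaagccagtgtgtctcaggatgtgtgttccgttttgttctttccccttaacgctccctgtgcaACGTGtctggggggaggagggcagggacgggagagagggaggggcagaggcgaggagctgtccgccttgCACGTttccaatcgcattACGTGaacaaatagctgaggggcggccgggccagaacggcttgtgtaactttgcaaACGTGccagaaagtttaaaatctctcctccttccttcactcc

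The motifs TGACGTCA (the cAMP response element), ACGTG (the core of the hypoxia response element), TGANTCA (the AP-1 element) and TATAA (the core of the TATA box) were searched on both strands. No motif contains another. The FN1 window holds 1 TGACGTCA, from -183 to -176, and 1 TATAA, from -28 to -24, counted from the start site. TGACGTCA is found in 1.63% of the 34943 RefSeq promoter windows of this length, and TATAA in 6630 of them. The LOX window holds none of these and no TGANTCA, but ACGTG on one strand or the other at 4 places, starting at -185, -116, -98 and -42. At least 1 ACGTG is found in 18.5% of all windows, and 4 or more in 0.667%. TGANTCA is found in 6.59% of windows and in neither of the pair. FN1's window has a GC content of 76.4% and that of LOX 55.2%, against a median of 58.0%. Of the 6 genes, 5 matched the promoter table, and LOXL2 has no entry in it. A match is a description of the letters and not a measured binding site.

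The deposited values are read counts scaled by 1 factor per library and rounded, called normalized counts here. They summed to between 14306848 and 17999273 per library, which corresponded to between 13060844 and 18592366 reads on genes. A value of 3 reads, taken as the floor of detection, was worth 2.41 to 3.73 normalized counts depending on the library, and covers counting error only. All 7 basal mammary epithelial markers reported (KRT5, KRT14, KRT17, TP63, ITGB4, LAMA3 and LAMB3) and all 4 general epithelial markers were above 3 reads in every library. The lower and the higher sum of these 7 were 158225 and 183924 normalized counts for soft IPN, 127818 and 173940 for stiff IPN, 130904 and 180226 for soft col:rBM, and 114057 and 151233 for stiff col. Single basal markers moved in opposite ways under these sums. From soft col:rBM to stiff IPN, KRT17 went from 2883 to 19555 in replicate 1 and from 7944 to 71907 in replicate 2. Between the same gels ITGB4 went from 59921 to 21849 in replicate 1 and from 27008 to 9669 in replicate 2. LAMA3 went from 57417 to 33123 and from 27535 to 19324. Of 7 fibroblast markers, THY1 was listed at 0 in every library, LUM and COL3A1 were never above 3 reads, and the sum of all 7, most of it DCN and COL1A1, lay between 775 and 1468. Of 3 leukocyte markers, PTPRC was listed at 0 in every library and CD3E had at most 1 normalized count, while CD14 had between 89 and 412 normalized counts. The part of other cell types in the results was not tested. In bulk samples such as these, fewer cells of a type and less RNA per cell cannot be told apart.

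The 2 libraries of a gel differed widely. FN1 and LOXL2 were lower in replicate 2 than in replicate 1 in all 4 gels, LOX in 3 of 4. The library stiff IPN replicate 2 stood apart for LOX and LOXL2, so values without it are given beside theirs.

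FN1, the fibronectin gene, stood at 11610 and 9691 normalized counts in soft IPN (replicates 1 and 2), 7577 and 3936 in stiff IPN, 28969 and 11569 in soft col:rBM, and 57569 and 23828 in stiff col. Its means were 10650.5 ± 1360 for soft IPN, 5756.5 ± 2570 for stiff IPN, 20269 ± 12300 for soft col:rBM and 40698.5 ± 23900 for stiff col (SD, n = 2 each). From high to low the gels ran stiff col, soft col:rBM, soft IPN and stiff IPN, and their order was the same in each trial. Neighbours in this order overlapped between stiff col and soft col:rBM and between soft col:rBM and soft IPN, whereas all soft IPN libraries lay above all stiff IPN libraries. From the lowest library to the highest, FN1 spanned 14.63-fold. It took 0.0275% of all normalized counts in stiff IPN replicate 2 and 0.332% in stiff col replicate 1. Per kb of exon, FN1 ranked 175th of 21538 genes in stiff col replicate 1 and 2454th in stiff IPN replicate 2.

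LOX, the founding member of its family, stood at 3207 and 4950 normalized counts in soft IPN, 946 and 170 in stiff IPN, 6587 and 3325 in soft col:rBM, and 4987 and 2277 in stiff col. Both stiff IPN libraries lay below the other 6, and the other 3 gels overlapped with each other. Its means were 4078.5 ± 1230 for soft IPN, 558 ± 549 for stiff IPN, 4956 ± 2310 for soft col:rBM and 3632 ± 1920 for stiff col (SD, n = 2 each). The span from the lowest library to the highest was 38.75-fold, and the rank per kb of exon ran from 493 to 8430.

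LOXL2, which acts on the type IV collagen of basement membranes as well as on fibrillar collagen, lies on hg19 chromosome 8 from 23154410 to 23282841 (minus strand), where ENTPD4 overlaps it on the same strand. It stood at 10080 and 9356 normalized counts in soft IPN, 5517 and 891 in stiff IPN, 13279 and 5836 in soft col:rBM, and 11129 and 3745 in stiff col. The stiff IPN libraries lay below both soft IPN libraries, but stiff IPN replicate 1 lay above stiff col replicate 2, and the 3 other gels overlapped. Its means were 9718 ± 512 for soft IPN, 3204 ± 3270 for stiff IPN, 9557.5 ± 5260 for soft col:rBM and 7437 ± 5220 for stiff col (SD, n = 2 each).

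**Figure D1:**
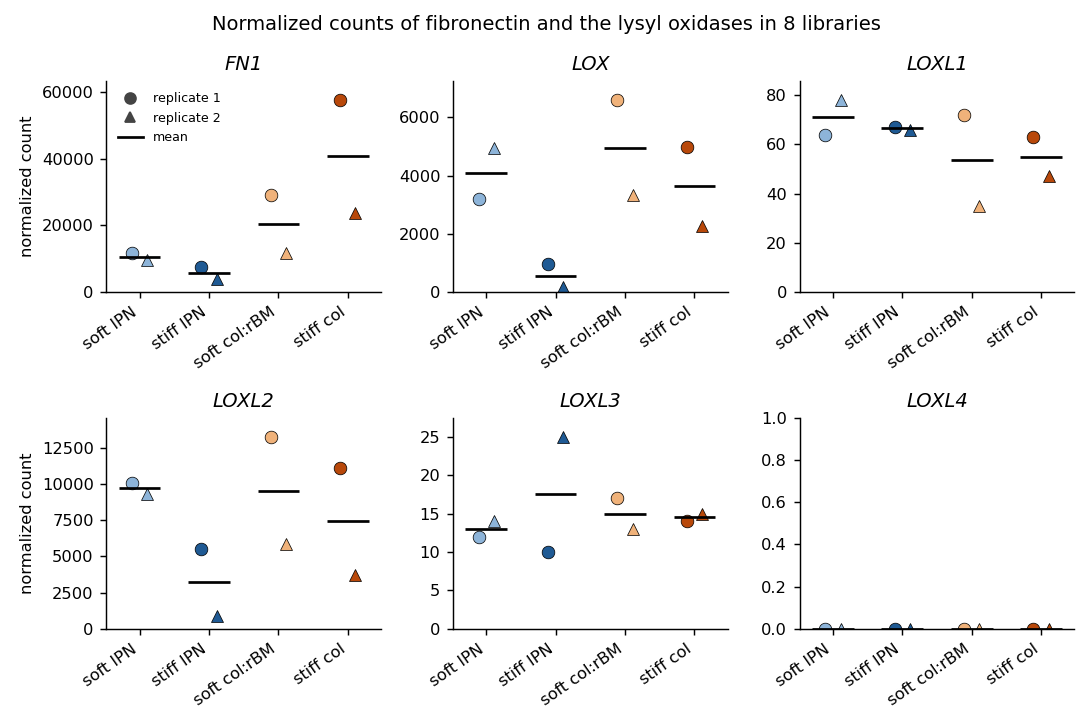
Normalized counts (y axis, linear, each panel with its own scale) of the 6 genes in the 4 gels (x axis), with replicate 1 as circles, replicate 2 as triangles and the mean of both as a bar. LOX was lower in both stiff IPN libraries (946 and 170) than in the other 6, and FN1 was highest in stiff col replicate 1 (57569).

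LOXL1 and LOXL3 were low. LOXL1, which is known for crosslinking elastin, stood at 64 and 78 normalized counts in soft IPN, 67 and 66 in stiff IPN, 72 and 35 in soft col:rBM, and 63 and 47 in stiff col. Its antisense partner LOXL1-AS1 had between 22 and 46. LOXL3 had between 10 and 25 normalized counts, with both extremes in the stiff IPN libraries. LOXL4 was listed at 0 in all 8 libraries, as were 25.7% of the genes of the table, and so was not tested. Whether a 0 of this kind is a lack of RNA or comes from the counting cannot be told from the values.

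Levels can be compared between genes only per length, for which the union of annotated exons was used. It was 17.22 kb for FN1, 5.6 kb for LOX and 5.99 kb for LOXL2. The union joins the exons of all annotated transcripts and can be longer than the RNA present, which lowers a value per kb. The order of FN1 against LOX and LOXL2, and the ranks per kb, depend on these lengths. Other lengths were not tried. Per kb of exon, the 5 lysyl oxidases together had between 202.9 (stiff IPN replicate 2) and 3419 normalized counts (soft col:rBM replicate 1). LOXL2 made up 59.7% to 82.9% of this sum and LOX 15.0% to 38.8%, and in every library LOXL2 was the highest. LOX made up 15.2% and 15.0% in the stiff IPN libraries and 25.2% or more in each of the other 6. LOXL1 made up 8.94% in stiff IPN replicate 2, where LOX and LOXL2 were lowest, and at most 1.66% in the other libraries. In the soft IPNs, mean levels per kb were 619 ± 78.8 for FN1, 729 ± 220 for LOX and 1620 ± 85.5 for LOXL2 (SD, n = 2). In the stiff col gels they were 2360 ± 1390, 649 ± 342 and 1240 ± 872.

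**Figure D2:**
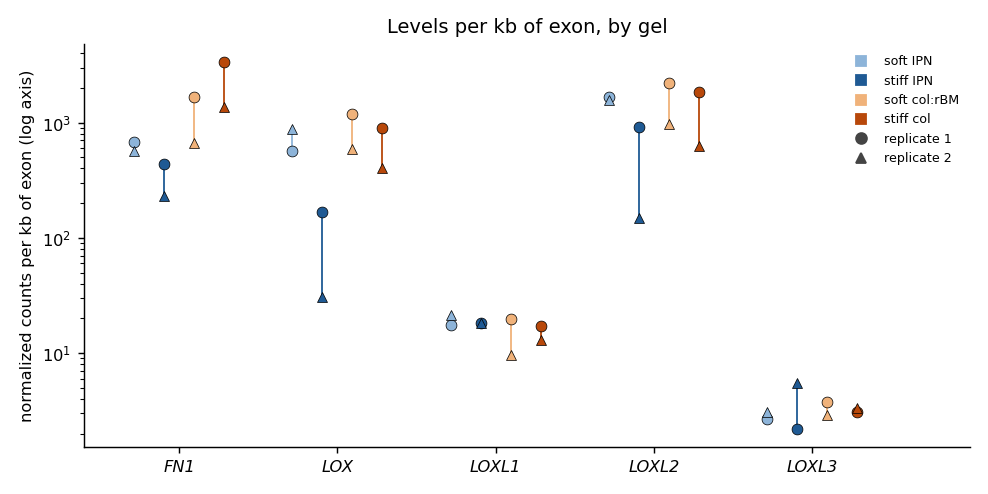
Normalized counts per kb of exon (y axis, log scale) of the 5 genes detected, with circles for replicate 1, triangles for replicate 2 and a line joining the replicates of a gel. LOXL2 was above LOX in every library, and LOXL1 and LOXL3 were below both, with the smallest gap in stiff IPN replicate 2, where LOX was 30.4 and LOXL1 18.1 per kb.

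Comparing stiff IPN with soft IPN asks what changes with stiffness, and with the calcium that sets it, where rBM is kept and col-1 is absent. LOX was lower in the stiff IPNs by 9.9-fold, a log2 fold change of -3.31 (SE 0.78), with values of -1.76 in trial 1 and -4.86 in trial 2. LOXL2 was lower by 4.38-fold (-2.13, SE 0.87), with -0.87 and -3.39 in the trials. FN1 was lower by 1.94-fold (-0.96, SE 0.57), with -0.62 and -1.30. LOXL1 (-0.09, SE 0.42) and LOXL3 (0.28, SE 0.53) overlapped between the gels, and their trials had opposite signs. FN1, LOX and LOXL2 thus lay lower without overlap, as did 21.4% of the 13369 genes tested, while 20.5% lay higher without overlap. Without stiff IPN replicate 2, the log2 fold change was -2.07 for LOX, -0.82 for LOXL2 and -0.49 for FN1, and without stiff IPN replicate 1 it was -4.54, -3.44 and -1.43.

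A gene was called at an adjusted p under 0.05 (limma, Benjamini-Hochberg over all 13369 genes tested). No family member was called between the IPNs, at a background of 0% of all genes, and 2 (LOX and LOXL2) had an unadjusted p under 0.05, as did 1245 of all genes. With the trial as a block, LOX and LOXL2 passed, both lower, where 2.13% of all genes were called lower and 1.69% higher. Without stiff IPN replicate 2, that fit kept LOX and not LOXL2, with 4.56% of all genes called lower and 3.61% higher. Fitted with the block on only the IPNs, neither passed (0.987% lower and 1.35% higher). Nothing is read from these calls, since the family was chosen on differences that involve the same stiff IPN libraries. The smallest two-sided p of an exact permutation test with 2 libraries against 2 is 0.333, so all calls rest on the spread that limma shares across genes.

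Comparing stiff col with stiff IPN asks what differs at high stiffness between a gel of col-1 and one of rBM and alginate. LOX was higher in stiff col by 8.38-fold, a log2 fold change of 3.07 (SE 0.78), with 2.40 in trial 1 and 3.74 in trial 2. FN1 was higher by 6.78-fold (2.76, SE 0.57), with 2.93 and 2.60. Ordered by fold change over all genes tested, LOX was 4th and FN1 7th, and these are the differences for which the family was known beforehand. Both lay higher without overlap, as did 15.1% of all genes, and LOXL1 lay lower without overlap (-0.28, SE 0.42), as did 15.8%, although its values of 67 and 66 against 63 and 47 were close. LOXL2 was higher by 2.91-fold (1.54, SE 0.87) but overlapped, and LOXL3 (-0.13, SE 0.53) overlapped too. Leaving out 1 library at a time gave FN1 a range from 2.13 (without stiff col replicate 1) to 3.4 (without stiff col replicate 2). LOX came to 1.83 and LOXL2 to 0.23 without stiff IPN replicate 2, and to 4.3 and 2.86 without stiff IPN replicate 1. No member was called without the block (background 0%, with FN1 and LOX among the 838 genes at an unadjusted p under 0.05). FN1 and LOX passed with the block, where 1% of all genes were called higher and 1.47% lower, and in that fit without stiff IPN replicate 2, where 2.61% were higher and 2.81% lower. With the block on only these gels, LOXL2 passed as well (0.696% higher and 1.26% lower). The family was chosen on this comparison, so nothing is read from these calls. The comparison uses the same stiff IPN libraries as the one before it.

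Comparing stiff col with soft col:rBM asks what changes in collagen gels with stiffness, col-1 density and rBM together. FN1 was higher in stiff col by 2.02-fold (log2 fold change 1.02, SE 0.57, or 0.25 with the block), with 0.99 in trial 1 and 1.04 in trial 2. The libraries overlapped, with trial 1 above trial 2 in both gels. FN1 came to 0.35 without soft col:rBM replicate 2 and to 1.68 without soft col:rBM replicate 1. LOX was -0.47 (SE 0.78), LOXL2 -0.45 (SE 0.87), LOXL1 0.11 (SE 0.42) and LOXL3 -0.04 (SE 0.53), all with overlap. Across all genes, 9.51% lay higher and 9.5% lower without overlap, and 0% were called with or without the block. No family member was called in these fits, and none had an unadjusted p under 0.05 without the block, as 140 genes did. With the block FN1 had one (limma), as did 497 of all genes. Fitted with the block on only the collagen gels, FN1 passed as higher and LOX and LOXL2 as lower, where 3.05% of all genes were called higher and 4.02% lower.

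Comparing soft col:rBM with soft IPN asks what differs in soft gels when a low density of col-1 takes the place of alginate. FN1 was higher in soft col:rBM by 1.73-fold (log2 fold change 0.79, SE 0.57), unevenly between the trials (1.32 and 0.26), and came to 0.13 without soft col:rBM replicate 1 and 1.45 without soft col:rBM replicate 2. LOX (0.23, SE 0.78), LOXL1 (-0.48, SE 0.42), LOXL2 (-0.14, SE 0.87) and LOXL3 (0.18, SE 0.53) each had opposite signs in the trials. All 5 overlapped between the gels, where 10.3% of all genes lay higher and 10.4% lower without overlap. No member was called (background 0% without the block, 0.015% higher and 0.00748% lower with it). Without the block no member had an unadjusted p under 0.05 (limma), as 190 of all genes did. With it FN1 had, as did 636 of all genes.

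**Figure D3:**
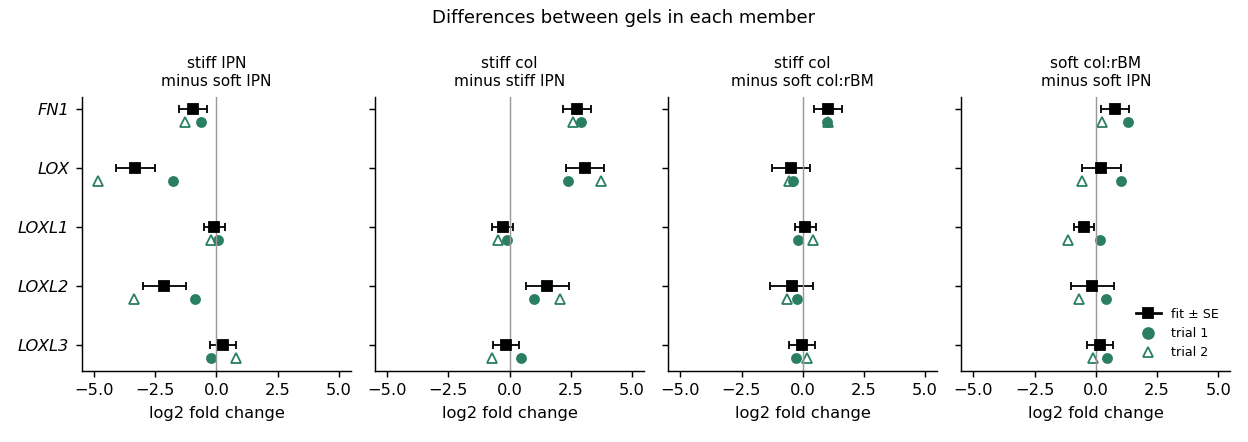
Log2 fold changes (x axis) of the 5 genes tested (y axis) in 4 comparisons of gels, with the fitted value as a square with its standard error over 8 libraries, trial 1 as a filled circle and trial 2 as an open triangle. In stiff col against stiff IPN, FN1 was 2.93 and 2.60 in the trials and LOX 2.40 and 3.74.

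The stiffer less the softer gel is called the stiffness effect here, although col-1 density and rBM, or calcium in the IPNs, change too. The stiffness effect in the collagen gels minus that in the IPNs asks whether the gel systems differ in their stiffness effect. It was 1.97 (SE 0.81) for FN1, 2.83 (SE 1.11) for LOX, 1.68 (SE 1.23) for LOXL2, 0.20 (SE 0.59) for LOXL1 and -0.31 (SE 0.75) for LOXL3, all on the log2 scale. Without stiff IPN replicate 2 it was 1.5 for FN1, 1.60 for LOX and 0.37 for LOXL2, and without stiff IPN replicate 1 it was 4.07 for LOX and 3.00 for LOXL2. FN1 ranged from 1.31 without soft col:rBM replicate 2 to 2.64 without soft col:rBM replicate 1. FN1 was lower in the stiffer IPNs and higher in the stiffer of the collagen gels in both trials, which held for 5.65% of all genes, and 5.65% moved in the reverse way. LOX and LOXL2 were lower in the stiffer gel of both systems in both trials, by less in the collagen gels. No member was called with or without the block, against backgrounds of 0% without it and 0% higher and 0.015% lower with it. Without the block, FN1 and LOX had an unadjusted p under 0.05 (limma), as did 278 of all genes. With it FN1, LOX and LOXL2 had, as did 1321 of all genes.

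Ratios of genes within a library do not depend on how the libraries were scaled, and 3 were computed after the values had been seen, so no test is given. FN1 had 3.62 and 1.96 times the normalized counts of LOX in the soft IPN libraries, 8.01 and 23.2 times in the stiff IPN libraries, 4.40 and 3.48 times in the soft col:rBM libraries, and 11.5 and 10.5 times in the stiff col libraries. The ratio of FN1 to LOX was thus higher in every library of the stiffer gels than in any library of the softer gels. Between the IPNs both genes were lower in the stiffer gel, LOX by more (log2 fold change -3.31, against -0.96 for FN1). Between the collagen gels FN1 was 1.02 and LOX -0.47. How many other pairs of genes separate in this way was not counted. FN1 had 1.15 and 1.04 times the counts of LOXL2 in the soft IPN libraries, 1.37 and 4.42 times in the stiff IPN libraries, 2.18 and 1.98 times in the soft col:rBM libraries, and 5.17 and 6.36 times in the stiff col libraries. LOXL2 had 5.83 and 5.24 times the counts of LOX in the stiff IPN libraries, against 1.64 to 3.14 times in the other 6. The replicates lay far apart on the ratio of FN1 to LOXL2 in stiff IPN and close together in the other 3 gels.

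**Figure D4:**
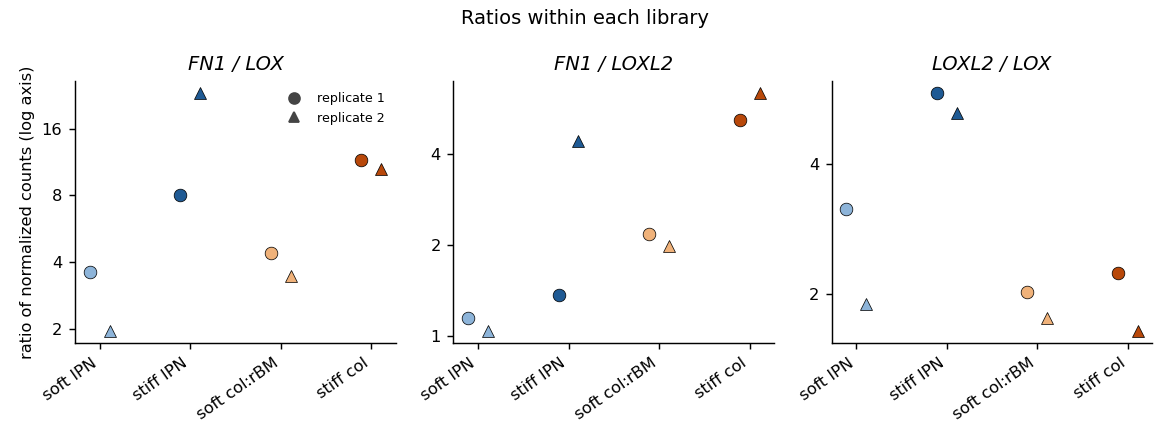
Ratios of normalized counts within each library (y axis, log scale) for FN1 to LOX, FN1 to LOXL2 and LOXL2 to LOX by gel (x axis), with replicate 1 as circles and replicate 2 as triangles. The ratio of FN1 to LOX was 8.01 or more in all 4 libraries of the stiffer gels and 4.40 or less in all 4 of the softer gels.

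Across the 8 libraries, LOX and LOXL2 had a Pearson correlation of log2 values of 0.93 (Spearman 0.90), which was 0.72 (0.86) without stiff IPN replicate 2. FN1 with LOX had 0.74 (0.74), and 0.55 (0.61) without that library. These points share gels and trials, and the correlations are descriptions. The 5 genes whose pattern was most like that of FN1 by Pearson correlation over the 8 libraries were MMP2 (0.985), which encodes a gelatinase, ARHGEF6 (0.978), HS6ST3 (0.971), YIPF5 (0.963) and MATN3 (0.955), a matrilin. MMP2 stood at 124 and 142 normalized counts in soft IPN, 84 and 66 in stiff IPN, 263 and 143 in soft col:rBM and 438 and 219 in stiff col. Among the 5 most like LOX were FTO (0.992), ITPR1 (0.989), a calcium channel of the endoplasmic reticulum, ELK1 (0.985) and LRP1 (0.984), an endocytic receptor. These 4 moved over a narrower range than LOX, with LRP1 between 1159 and 5146 normalized counts and FTO between 464 and 1016.

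The genes that work with this family were taken as 6 lists of 52 genes, of which 41 passed the filter on low values. Without the block none was called in any of the 5 comparisons (limma). Between the IPNs, 8 of the 41 had an unadjusted p under 0.05 (against 9.31% of all genes), and between stiff col and stiff IPN 10 (6.27%). Between the collagen gels 0 had one (1.05%), between the soft gels 1 (1.42%), and for the difference in stiffness effects 5 of the 41 (2.08%). With the block, 4 were called higher and 8 lower in stiff IPN than in soft IPN (backgrounds 1.69% and 2.13%), and 11 higher and 1 lower between stiff IPN and stiff col (1% and 1.47%). In that fit without stiff IPN replicate 2, the first comparison had 4 called higher and 11 lower (3.61% and 4.56% of all genes), and the second 11 and 1 (2.61% and 2.81%). The median log2 fold change of the 41 was -0.41 in the first comparison, where that of all genes was -0.01, and 0.54 in the second, where that of all genes was 0. The values below have adjusted p values from the limma fit that holds the trial as a block. None of these genes passed the threshold without it. Over all alternatives, the adjusted p of each called gene reached at least 0.999, and the lowest ran from 0.00115 (TNC between the IPNs) to 0.0476 (P4HA3 between stiff IPN and stiff col). The standard errors of their log2 fold changes were 0.36 to 1.24 without the block and 0.13 to 0.35 with it. Between the collagen gels the median of the 41 was 0.05, between the soft gels -0.02 and for the difference in stiffness effects 0.51, where those of all genes were 0, 0 and 0.01.

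Among 8 tested fibronectin receptors, ITGA5, the α5 partner of integrin β1, stood at 41410 and 22332 normalized counts in soft IPN, 21889 and 4560 in stiff IPN, 59791 and 15080 in soft col:rBM and 60270 and 13618 in stiff col. It was lower in stiff IPN than in soft IPN, with a log2 fold change of -1.61 (limma, adjusted p = 0.0373 with the block, 0.612 without) and higher in stiff col than in stiff IPN by 1.52 (0.0472 with the block, 0.847 without). Without stiff IPN replicate 2 these came to -0.47 and 0.39, and without stiff IPN replicate 1 to -2.74 and 2.65. ITGB6, which pairs with ITGAV, was higher in stiff IPN by 1.06 (adjusted p = 0.0446 with the block, limma), from 860 and 1258 normalized counts in soft IPN to 1918 and 2442 in stiff IPN. The list's median was -0.09 in the first comparison, with 4 of 8 above 0, and 0.39 in the second, with 6 of 8 above 0.

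Among 7 tested genes whose proteins bind or crosslink fibronectin, the matricellular genes TNC, POSTN and THBS1 were the 3 called higher in stiff IPN than in soft IPN with the block, where FN1 was lower. THBS1 had a log2 fold change of 0.92 (limma, adjusted p = 0.0406 with the block). TNC stood at 41 and 191 normalized counts in soft IPN, 194 and 1118 in stiff IPN, 32 and 127 in soft col:rBM and 39 and 241 in stiff col. It was higher in stiff IPN than in soft IPN by 2.38 (adjusted p = 0.00816 with the block, limma) and lower in stiff col than in the stiff IPNs (-2.25, adjusted p = 0.00781 with the block). Its first value ran from 1.12 to 3.64 without stiff IPN replicates 2 and 1, and the second from -3.55 to -0.95 without stiff col replicates 2 and 1. POSTN stood at 12 and 5 normalized counts in soft IPN, 47 and 28 in stiff IPN, 139 and 55 in soft col:rBM and 100 and 82 in stiff col. It was higher in stiff IPN than in soft IPN by 2.08 (adjusted p = 0.031 with the block, limma), and it was the 1 list gene called between the soft gels, by 3.33 (adjusted p = 0.05 with the block once rounded, 1 without), which ran from 2.66 to 3.99 without soft col:rBM replicates 1 and 2. FBN1, the fibrillin-1 gene, stood at 327 and 323 normalized counts in soft IPN, 144 and 82 in stiff IPN, and 661 and 258 in stiff col. Its log2 fold change was -1.57 between the IPNs (adjusted p = 0.0363 with the block, limma) and 1.92 between stiff col and stiff IPN (0.0218), the latter from 1.24 to 2.59 without stiff col replicates 1 and 2. TGM2, a transglutaminase, had log2 fold changes of -1.75 (adjusted p = 0.0338 with the block, limma) and 1.93 (0.0253), which came to -0.33 and 0.51 without stiff IPN replicate 2 and to -3.17 and 3.35 without stiff IPN replicate 1. The median of the 7 was -0.84 in the first comparison and 1.11 in the second.

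Of 10 substrate genes of the lysyl oxidases, 5 passed the filter. COL1A2, COL5A1 and COL11A1 were listed at 0 in every library, and COL3A1 and ELN, the elastin gene, were never above 1 normalized count. COL4A1 and COL4A2, the main chains of basement membrane collagen, were called higher in stiff col than in stiff IPN with the block, by 1.16 and 1.34 (adjusted p = 0.0235 for each, limma). COL4A2 had 1133 and 611 normalized counts in the stiff IPNs and 2940 and 1506 in stiff col. COL1A1 was between 168 and 333 normalized counts in all libraries. The median of the 5 tested was -0.13 between the IPNs, where none was called, and 0.11 between stiff IPN and stiff col.

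Among 6 tested genes for maturation and scaffolds, FBLN5, a scaffold of elastic fibres, was called in both comparisons with the block. It stood at 86 and 77 normalized counts in soft IPN, 36 and 21 in stiff IPN, 106 and 45 in soft col:rBM and 152 and 67 in stiff col. Its log2 fold changes were -1.53 between the IPNs (adjusted p = 0.0472 with the block, limma) and 1.84 between stiff col and stiff IPN (0.0331), the latter from 1.25 to 2.42 without stiff col replicates 1 and 2. BMP1, the procollagen C-proteinase that removes the propeptide of LOX, had between 882 and 1373 normalized counts, and ATP7A, a copper transporter, between 140 and 217. Neither was called. Of the list, 5 of 6 were below 0 between the IPNs (median -0.37), and all 6 above 0 between stiff IPN and stiff col (median 0.56).

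The collagen hydroxylases and chaperones all had a lower fitted level in stiff IPN than in soft IPN, 9 of 9, with a median of -0.74, where 6750 of 13369 genes were below 0. All 9 were above 0 in stiff col against stiff IPN, with a median of 0.73, where 6744 of all genes were. Both comparisons use the stiff IPN libraries. Of the 9, PLOD2 alone had opposite signs in the trials, with 0.59 and -1.13 in the first comparison and -0.80 and 0.92 in the second. P4HA1, a prolyl hydroxylase subunit, stood at 6447 and 2540 normalized counts in soft IPN and 2404 and 944 in stiff IPN. Its log2 fold change was -1.42 (adjusted p = 0.00669 with the block, limma), and it ran from -2.10 to -0.75 when stiff IPN replicates 1 and 2 were left out in turn. PLOD1, a lysyl hydroxylase, was -1.38 (adjusted p = 0.0326 with the block, limma) and the chaperone FKBP10 was -1.13 (0.0273). In stiff col against stiff IPN, P4HA3 was called at 1.61 (adjusted p = 0.0476 with the block, limma), P4HA1 at 0.93 (0.0183) and FKBP10 at 0.88 (0.047). Without stiff col replicate 1 these came to 0.57, 0.22 and 0.41, and without stiff col replicate 2 to 2.65, 1.63 and 1.36. In stiff col against soft col:rBM the same 9 genes had a median of -0.02 and none was called.

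Of the mesenchymal genes, VIM, the vimentin gene, stood at 61638 and 30868 normalized counts in soft IPN, 22798 and 9804 in stiff IPN, 58049 and 18444 in soft col:rBM and 46195 and 18460 in stiff col. It was lower in stiff IPN than in soft IPN, with a log2 fold change of -1.54 (limma, adjusted p = 0.0131 with the block) and higher in stiff col than in stiff IPN by 0.97 (0.0394). The first ran from -2.15 to -0.94 when stiff IPN replicates 1 and 2 were left out in turn, and the second to 0.30 without stiff col replicate 1 and 1.63 without stiff col replicate 2. SNAI2, a transcription factor of the epithelial-mesenchymal transition, was higher in stiff col than in stiff IPN by 1.13 (adjusted p = 0.0279 with the block, limma). Between the IPNs SNAI2 was -0.56, with overlap, and was not called. Of the 6 tested genes, 5 were below 0 in the first comparison (median -0.59), and ZEB1 was 0.55. In the second, 5 were above 0 (median 0.73), and CDH2 was -0.22. ZEB1 (-0.31 and 1.42) and CDH2 (-0.70 and 0.46) had opposite signs in the trials of the first comparison. SNAI1, with 2 to 8 normalized counts, did not pass the filter.

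**Figure D5:**
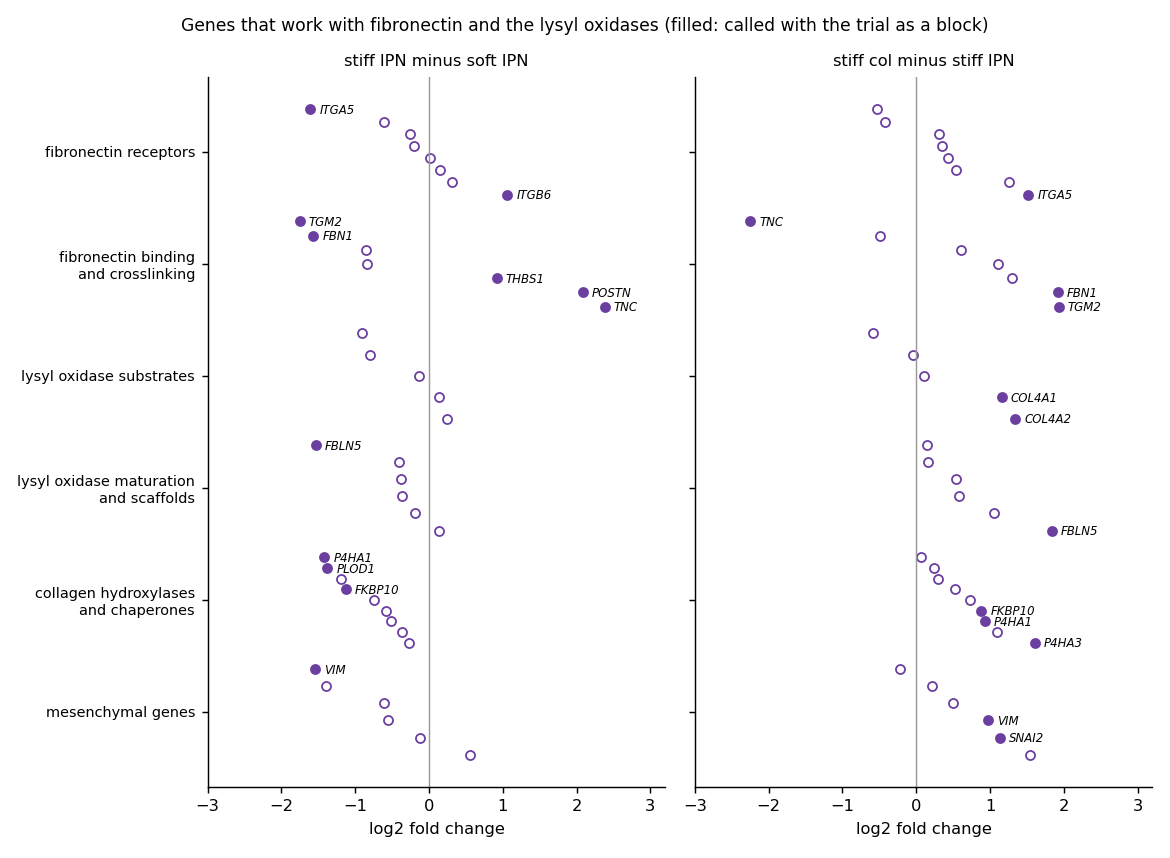
Log2 fold changes (x axis) of the 41 tested genes of 6 lists (y axis, genes of a list ordered by value) for stiff IPN against soft IPN (left) and stiff col against stiff IPN (right), with genes called by limma with the trial as a block filled and named. With the block, 12 genes were called in each comparison, 8 of them lower on the left and 11 higher on the right.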

How the data were processed

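RNA-seq was measured in MCF10A cells from 4 gels with 2 libraries each, and the groups were taken from the sample titles and gel descriptions. The authors trimmed the reads with Trim Galore 0.3.3, aligned them to hg19, kept well-mapped reads with a single position, and counted these per gene with HTSeq. The methods name Bowtie2 as the aligner and the submitters' processing notes TopHat2 2.0.13. SAMtools 1.1 and R 3.2.0 are also in the notes. The annotation and the strandedness of the counting are not given in the sources used here. What was deposited is a signal, the authors' counts scaled with 1 factor per library and rounded. The factors were estimated from the spacing of low values, and no count test was run. All 8 value columns were used and 0 left out. Of the 25369 symbols, 28 had been turned into dates.

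Genes with at least 10 normalized counts in at least 2 libraries (13369) were transformed to log2(value + 1), a scale that understates the change of low genes, and went into limma 3.58.1 (run in R 4.3.3 with statmod 1.5.0), using 1 mean per gel, a trend and robust moderation. Benjamini-Hochberg adjustment covered all genes tested, and the threshold was 0.05. Replicate numbers were taken to pair the libraries, because the methods describe independent trials. Same-numbered libraries deviated together in all 6 pairs of gels (r 0.28 to 0.82). Values with the trial as a block are therefore given where they change a call. The correlation was weakest in the pairs with stiff IPN (0.28, 0.39 and 0.40, against 0.65 to 0.82 in the others). In the fit on all libraries, most calls with the block came from comparisons with stiff IPN. With 2 libraries per gel, p values measure the spread between these libraries. Simulated data, in which 200 of 13369 genes differed between stiff col and stiff IPN and the trials were shifted, were used to test limma. It recovered 64.6% of the changed genes without the block (0 false calls on average) and 100% with it (11.8 false calls). The simulation gave all genes the same spread, below the replicate SD of LOX (1.05 on the log2 scale) and LOXL2 (1.16). It changed only genes well above the filter and gave all gels the same trial shift, unlike the data. These rates therefore do not carry over to the calls reported here.

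The members and lists were chosen with earlier results of these data known, and the lists come from general knowledge. Named genes were all members, up to 3 called genes per list and comparison with the largest change (calls with the block, as there were none without it), and the 5 genes most correlated with FN1 and with LOX. The low or absent genes of a list, LOXL1-AS1, THBS1, BMP1, ATP7A, COL1A1, ZEB1 and CDH2 were named after their values were seen. Exon lengths were the union of exons in GENCODE 44 lifted to hg19, found for 21538 genes (85.0%). Python 3.11.15, numpy 2.4.6, pandas 2.3.3 and matplotlib 3.10.9 were used for levels and plots. Alternatives were another pseudocount (0.5 or 5), filter, scaling or block, fits on the gels compared, and leaving out each library. A fit with the block and without stiff IPN replicate 2 was added after the values were seen. Of the basal markers and of the genes most like LOX, 1 each is not reported here.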

Additional observations from a re-analysis of the deposited data

Results flagged for a closer look

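FN1 was lower in stiff IPN than in soft IPN in both trials (-0.62 and -1.30 on the log2 scale) and higher in the stiffer of the collagen gels in both trials (0.99 and 1.04). Besides stiffness, these effects include col-1 density and rBM in the collagen gels and calcium in the IPNs. The difference of these effects, collagen gels less IPNs, was 1.97. It was singled out because the libraries of both trials moved in opposite directions in the 2 gel systems, and not on a test of the difference. In the fit over all genes FN1 was not called for it, with or without the block. It had an unadjusted p under 0.05 (limma) in both, as did 278 of all genes without the block and 1321 with it. As FN1 had been chosen with results known, this is a description, and the difference was not tested on values independent of that choice. Opposite directions of this kind were found for 9 of the 41 tested list genes (ITGB1, FBN1, TGM2, COL4A1, COL4A2, BMP1, FBLN5, SNAI2 and TWIST1). None of the list genes had the reverse, and the share was 5.65% each way over all genes. This count uses the sign alone, and several of the 9 were near 0 in 1 trial. Between the IPNs these were ITGB1 (-0.02), BMP1 (-0.04) and TWIST1 (-0.06), and between the collagen gels FBN1, TGM2 and TWIST1 (0.02 each). COL4A1, COL4A2 and FBLN5 were at least 0.46 from 0 in each trial of both comparisons, and SNAI2 at least 0.14.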

How the results depend on the processing

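The number of family members called was 0 in every comparison in all 8 fits that left out 1 library, as was the number of list genes called (range 0 to 0). It was also 0 with pseudocounts of 0.5 and 5, no filter or a filter of 10 in every library, median-of-ratios or upper-quartile rescaling, and in fits on only the gels compared without a block. With the replicate block (the trial), members called were 2 between the IPNs and 2 between stiff col and stiff IPN, and list genes called were 12, 12 and, between the soft gels, 1. With the block and only the gels compared, members called were 0 between the IPNs, 3 (FN1, LOX and LOXL2, all higher) between stiff col and stiff IPN and 3 (FN1 higher, LOX and LOXL2 lower) between stiff col and soft col:rBM, and list genes called were 8, 12, 7 and, between the soft gels, 1. With the replicate block and without stiff IPN replicate 2, members called were 1 (LOX) and 2, and list genes called were 15, 12, 1 between the soft gels and 1 for the difference in stiffness effects. The block changed no other call of a member. The cause of these differences between fits was not tested.

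Of 440 log2 fold changes of members under alternatives, 413 moved by less than the replicate SD and 27 by more. Many of the 413 could not move. A block on all libraries, another filter or a fit on only the gels compared leaves a difference of gel means as it is. So does leaving out a library of a gel outside the comparison. The 413 are therefore no measure of robustness. Of the 200 values that left out 1 library without the block, 24 moved by more and 18 changed sign. The 27 all left out at least 1 library. The sign changed in 21, all of them without 1 library (3 of these also with the block) and none for FN1 or for LOX or LOXL2 in a comparison with stiff IPN. LOXL3 between the IPNs was -0.34 without stiff IPN replicate 2 and -0.35 with the block as well. Over all genes tested, calls numbered 0 in all 5 comparisons without the block and, with it, 511 between the IPNs, 330 between stiff col and stiff IPN, 0 between the collagen gels, 3 between the soft gels and 2 for the difference in stiffness effects. On only the gels compared they were 2 between the IPNs without the block and 312, 261, 945 and 45 with it, and in the fit with the block and without stiff IPN replicate 2 they were 1092, 725, 30, 21 and 41. A pseudocount of 5 gave 4 and leaving out stiff col replicate 2 gave 5 between stiff col and stiff IPN. No rescaling moved the median of all genes to more than 0.02 from 0. Fits on only the gels compared were not run for the difference in stiffness effects, which needs all libraries. LOXL4 was listed at 0.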
